A study of Mus musculus with 6 samples.

Results

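Thyroid hormone handling and receptors were described through 8 genes: the deiodinase genes Dio1, Dio2 and Dio3, the T3 receptor genes Thra and Thrb, the transporter gene Slc16a10, the corepressor gene Ncor1 and Crym, which encodes a cytosolic T3-binding protein. They were chosen by symbol from the 46095 rows of a table of read counts. All 8 were found, and 6 had enough counts to be tested. The table covers 6 RNA sequencing libraries of brown adipocytes differentiated in culture from the stromal vascular fraction, the non-fat cells of a digested fat pad, of brown adipose tissue. There were 3 libraries from control mice and 3 from U-IRX3ov mice, both groups C57BL/6 and 5 weeks old. The labels give the genotype by the name U-IRX3ov alone, without its construct or promoter. They also leave out if replicate libraries are of different mice or dishes, so p-values measure the spread between these libraries, which may be technical. Both groups had the same medium: insulin (5 µg/mL), dexamethasone (1 µM), rosiglitazone (1 µM), T3 (1 µM) and IBMX (0.5 mM) for 2 days, then insulin, rosiglitazone and T3 for 6 days, 8 days in all. T3 was thus supplied to control and U-IRX3ov cells alike, and IBMX, which raises cAMP, was present only at the start.

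Thyroid hormone reaches its target genes in several steps. Transporters carry thyroxine and T3 across the membrane. The deiodinases then act inside the cell: the Dio1 and Dio2 enzymes turn thyroxine into the active hormone T3, and the Dio3 enzyme inactivates both. T3 binds nuclear receptors from Thra and Thrb, which sit on DNA with RXR partners and hold corepressors such as Ncor1 without hormone and coactivators with it. In brown fat Dio2 is known as the cAMP-induced enzyme that raises T3 within the cell, and T3 is known to act together with adrenergic signals on Ucp1, the gene of the uncoupling protein.

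The 3 deiodinases share a selenocysteine in their active site, written in the mRNA as an in-frame TGA that is read through. The lines show the bases around each codon annotated this way, from GENCODE transcripts of GRCm38, with the TGA in capitals, because this is the feature that defines the family. Dio2 holds a second one near its end.
Dio1, codon 126: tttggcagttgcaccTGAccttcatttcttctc
Dio2, codon 130: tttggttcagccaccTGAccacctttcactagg
Dio3, codon 170: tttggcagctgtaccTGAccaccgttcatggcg
Dio2, codon 263: aatttcagcaagagaTGAattctagat
The active-site windows of Dio1 and Dio3 were identical at 22 of 33 bases, those of Dio2 and Dio3 at 21, and those of Dio1 and Dio2 at 18. The coding sequences have 257 codons in Dio1, 266 in Dio2 and 304 in Dio3.

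The promoters of the members that rose most, Dio2 and Thrb, are shown as the 250 bases before the start of transcription in RefSeq (GRCm38.p6). Capitals mark 2 motifs searched on both strands: the full cAMP response element TGACGTCA, a palindrome bound by CREB, and AGGTCA, the core hexamer bound by nuclear receptors such as the T3 receptors. Thrb has 2 annotated starts.
Dio2, chr12:90739039-90739288, minus strand: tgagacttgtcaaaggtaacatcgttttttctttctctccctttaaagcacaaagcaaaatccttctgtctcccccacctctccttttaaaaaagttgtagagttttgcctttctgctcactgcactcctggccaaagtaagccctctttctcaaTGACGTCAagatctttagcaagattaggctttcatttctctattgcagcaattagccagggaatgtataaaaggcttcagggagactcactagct
Thrb, first start, chr14:17660710-17660959, plus strand: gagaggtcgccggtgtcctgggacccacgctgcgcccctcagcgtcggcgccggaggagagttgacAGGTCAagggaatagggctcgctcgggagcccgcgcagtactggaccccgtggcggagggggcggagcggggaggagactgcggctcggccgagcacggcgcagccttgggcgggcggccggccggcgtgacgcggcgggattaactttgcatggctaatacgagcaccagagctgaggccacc
Thrb, second start, chr14:17981394-17981643, plus strand: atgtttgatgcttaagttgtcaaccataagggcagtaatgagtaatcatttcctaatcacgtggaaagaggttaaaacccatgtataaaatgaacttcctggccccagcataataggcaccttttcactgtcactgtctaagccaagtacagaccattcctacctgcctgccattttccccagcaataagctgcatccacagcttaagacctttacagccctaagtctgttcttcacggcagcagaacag
The element TGACGTCA lay 95 to 88 bases before the Dio2 start and is present in 1.55% of 32851 promoters of the same length. The hexamer AGGTCA lay 184 to 179 bases before the first Thrb start and is present in 14.0% of promoters. The short form TGACG, found in 17.8% of promoters, is part of the Dio2 element and also lay 56 to 52 bases before the first Thrb start. None of these motifs was found in the window of the second Thrb start or in those of Dio1, Dio3, Slc16a10 or Ncor1. The RefSeq starts are not always the gene ends of GENCODE given below. All Ncor1 and Thrb windows lie inside those genes, the Dio3 window runs past its GENCODE start, and the Dio2 window lies wholly before its own. Other starts were not searched, so the absence of a motif holds for these windows only. The table held promoters of 6 members, without Thra and Crym. The classical T3 response element, AGGTCA repeated in the same direction after 4 bases of any kind, was in none of the members' windows and in 0.0152% of all promoters. A match of letters shows neither binding nor use of the site.

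Library totals ran from 20094799 to 26755870 counts, and 14757 genes passed the filter on low counts. Libraries of different groups lay farther apart than any 2 of the same group (distances of 59.8 to 71.0 against 36.9 to 45.6 over log2 CPM), and no library stood with the other group. The differences between the groups were broad: edgeR's quasi-likelihood test with Benjamini-Hochberg adjustment called 6098 genes at an adjusted p under 0.05, which is 41.3% of those tested, 20.2% higher and 21.1% lower in U-IRX3ov cells. A call by itself is therefore common in this comparison. Irx3, the gene named in the genotype, had 5.11 ± 0.32 CPM (counts relative to the library total, as scaled by edgeR; SD, n = 3) in the controls, against 6.16 ± 0.23 CPM with U-IRX3ov, and did not pass (edgeR adjusted p = 0.112). Whether reads of the construct would count under that symbol is not known.

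Among the tested thyroid hormone genes, Dio2, Thrb and Ncor1 rose in U-IRX3ov cells, Thra fell, and Dio3 and Slc16a10 did not pass the test. That is 4 of 6 tested members called, against 41.3% of all genes. In CPM scaled by TMM, edgeR's correction for library composition, the groups did not overlap for the same 4 members, against 50.8% of all genes. Neither share was tested against that background, and the members were chosen with earlier results of these data known. Every member's change was below 2-fold.

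**Figure D1:**
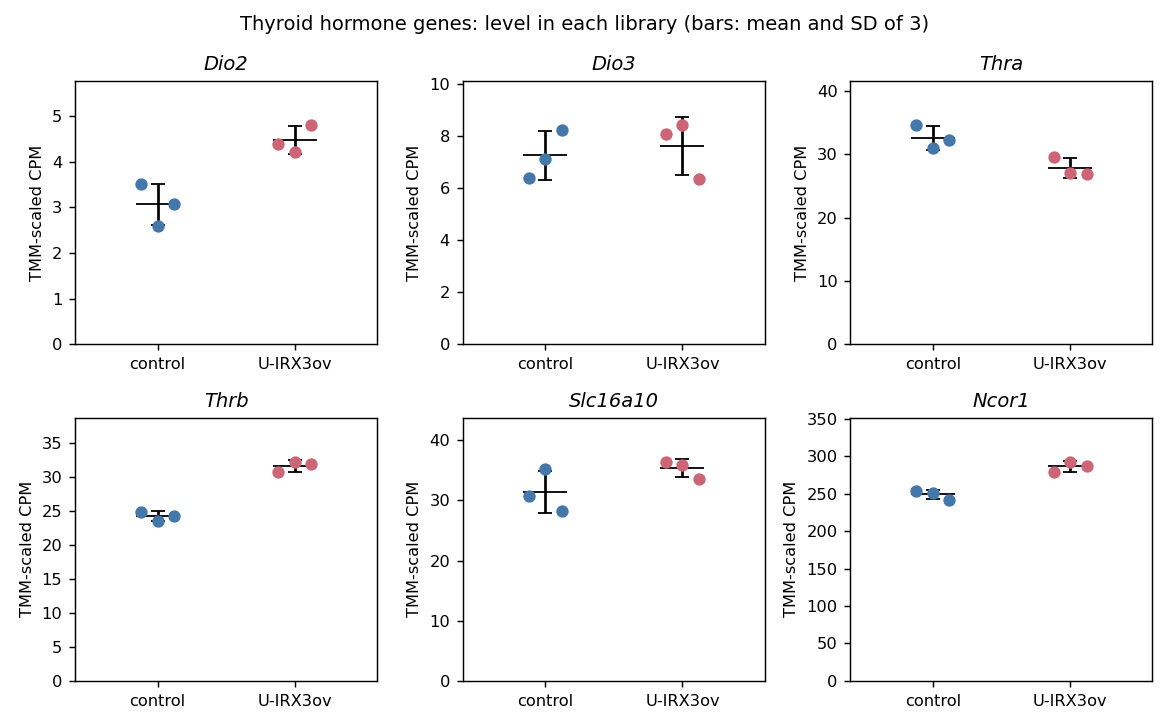
TMM-scaled CPM of the 6 tested genes in each library, with 1 point per library and the mean and SD of 3 as bars; every axis starts at 0. Dio2, Thrb and Ncor1 sit higher in all 3 U-IRX3ov libraries, Thra sits lower in all 3, and Dio3 and Slc16a10 overlap between groups.

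Dio2, the activating deiodinase (chromosome 12, 90724552 to 90738438 of mm10, minus strand), had 96, 68 and 83 counts in the control libraries 1, 2 and 3 and 114, 82 and 93 counts in the U-IRX3ov libraries. In CPM these were 3.505, 2.598 and 3.08 in the controls and 4.38, 4.21 and 4.80 with U-IRX3ov. Every U-IRX3ov library lay above every control library, although the lowest U-IRX3ov library and the highest control library differed by less than 1 CPM. Dio2 rose 1.46-fold (log2 fold change 0.54 ± 0.17 SE, 95% interval 0.19 to 0.89, edgeR adjusted p = 0.0118), and 18.5% of all tested genes had a larger change in either direction. The call was lost without the low control library 2, where the log2 fold change was 0.44 and the adjusted p 0.0629. It passed narrowly in edgeR without U-IRX3ov library 3 (adjusted p = 0.0497) and in DESeq2 with all libraries (adjusted p = 0.0462). One annotated gene, Gm26512, overlaps 100 exon bases of Dio2 (1.72%) on the other strand, and it had 0 counts in all 6 libraries.

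Dio3, the inactivating deiodinase (chromosome 12, 110279068 to 110281097, plus strand), had 175, 186 and 222 counts in control and 210, 164 and 123 in U-IRX3ov libraries. This was 6.39, 7.11 and 8.24 CPM in the controls and 8.08, 8.42 and 6.35 CPM with U-IRX3ov. The groups overlapped over nearly their whole range, and U-IRX3ov library 3 was the lowest of the 6. The log2 fold change of Dio3 was 0.08 ± 0.13 (95% interval -0.20 to 0.35, edgeR adjusted p = 0.680).

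Dio1 (chromosome 4, 107291465 to 107307169, minus strand), the deiodinase of liver and kidney, had 1 count in control library 3 and 0 in the other 5. A count of 0 allows up to 0.112 to 0.149 CPM in these libraries, taking 3 counts as the limit and covering counting error only. Dio1 was not tested. At this depth the deiodinase mRNAs seen were thus those of Dio2 and Dio3.

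Crym (chromosome 7, 120186380 to 120202111, minus strand), whose protein binds T3 in the cytosol, had 1 count in control library 2, 1 in U-IRX3ov library 3 and 0 in the other 4. It was not tested, and no difference was detectable at this depth. The serum carrier genes Ttr and Serpina7, listed with it as hormone-binding genes, had group means of at most 0.0243 CPM, and none of the 3 passed the filter.

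The T3 receptor genes moved in opposite directions. Thra (chromosome 11, 98740638 to 98769006, plus strand) encodes the receptor prevalent in heart, bone and brain and, by splicing, a variant that does not bind T3, and the table does not separate these forms. It had 949, 810 and 871 counts in control and 770, 527 and 521 in U-IRX3ov libraries. Scaled to CPM, Thra stood at 34.7, 30.9 and 32.3 in control and at 29.6, 27.1 and 26.9 in U-IRX3ov cells. All U-IRX3ov libraries lay below all control libraries, with U-IRX3ov library 1 close to control library 2. Thra fell 1.17-fold (log2 fold change -0.23 ± 0.07, 95% interval -0.36 to -0.09, edgeR adjusted p = 0.00741), and 47.5% of tested genes changed more. Without control library 1, its highest, the log2 fold change was -0.18 and the adjusted p 0.0662.

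Thrb (chromosome 14, 17660261 to 18038090, plus strand), the receptor prevalent in liver and pituitary, had 681, 614 and 654 counts in control and 797, 628 and 618 in U-IRX3ov libraries. After scaling these were 24.9, 23.5 and 24.3 CPM in the controls and 30.7, 32.2 and 31.9 CPM with U-IRX3ov. The 3 libraries of each group lay close together, and the gap between the groups was wider than the range within either. Thrb rose 1.30-fold (log2 fold change 0.38 ± 0.06, 95% interval 0.25 to 0.52, edgeR adjusted p = 1.78e-05), with 29.3% of tested genes changing more. No annotated exon of another gene overlaps its exons.

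Thra overlaps the circadian repressor gene Nr1d1, which lies on the other strand and shares 263 bases, 5.7% of the Thra exons. No source used here says if counting used strand, so reads there could belong to either gene. Nr1d1 had 51.8 ± 1.65 CPM in the controls and 55.6 ± 1.68 CPM with U-IRX3ov (log2 fold change 0.10 ± 0.05, edgeR adjusted p = 0.126), a difference of opposite sign to that of Thra.

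The ratio of Thra to Thrb counts within a library does not depend on how libraries are scaled. It was 1.39, 1.32 and 1.33 in the control libraries and 0.966, 0.839 and 0.843 in the U-IRX3ov libraries. The groups were separate, with the 3 control ratios within a narrow range and U-IRX3ov library 1 nearest to them. The mean log2 ratio was 0.43 ± 0.04 (SD, n = 3) in the controls and -0.18 ± 0.12 with U-IRX3ov, a difference of -0.61, which is 1.53-fold. The exact two-sided permutation test gave p = 0.1, the smallest that 3 against 3 libraries allow, so this test cannot pass 0.05. The value was -0.68 to -0.58 when each library was left out in turn.

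**Figure D2:**
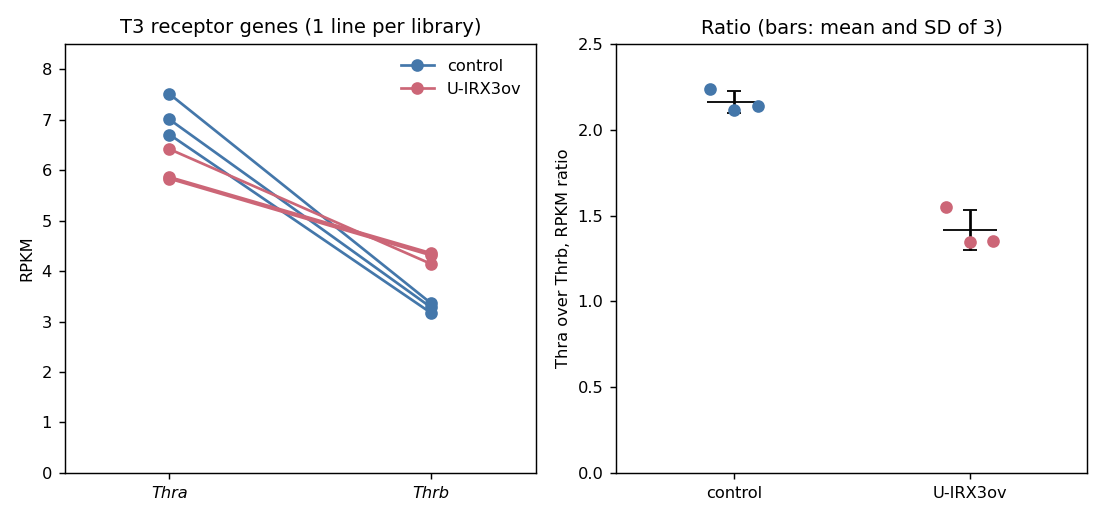
Left, CPM per kilobase of exon (RPKM) of the T3 receptor genes, with 1 line per library; right, their ratio in each library with the mean and SD of 3. Thra lies above Thrb in all 6 libraries, and the ratio is 2.12 to 2.24 in control and 1.35 to 1.55 in U-IRX3ov libraries; per longest transcript it is 3.34 to 3.52 and 2.12 to 2.44.

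Slc16a10 (chromosome 10, 40033532 to 40142258, minus strand) encodes a membrane transporter of aromatic amino acids and thyroid hormones. It had 842, 920 and 762 counts in control and 948, 700 and 651 in U-IRX3ov libraries, which is 30.8, 35.1 and 28.3 CPM in the controls and 36.5, 35.9 and 33.6 CPM with U-IRX3ov. Control library 2 lay within the U-IRX3ov range and the other control libraries below it. The log2 fold change was 0.17 ± 0.07 (95% interval 0.03 to 0.32), and the gene narrowly missed the threshold (edgeR adjusted p = 0.0554). Over 13 alternative analyses it passed in 6, with adjusted p from 0.00444 without control library 2 to 0.265 without control library 3.

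Ncor1 (chromosome 11, 62316426 to 62458541, minus strand), the corepressor that recruits histone deacetylase activity to receptors without hormone, was the most abundant member. It had 6947, 6573 and 6524 counts in control and 7255, 5706 and 5562 in U-IRX3ov libraries. Ncor1 thus stood at 254, 251 and 242 CPM in the controls and 279, 293 and 287 CPM with U-IRX3ov. The groups did not overlap. Ncor1 rose 1.15-fold (log2 fold change 0.20 ± 0.04, 95% interval 0.13 to 0.28, edgeR adjusted p = 4.94e-05), a small change that 51.5% of tested genes exceeded. Its 5′ end shares 82 bases with Pigl on the other strand, which rose as well (0.31 ± 0.07, edgeR adjusted p = 0.00105), and Ttc19 shares 1 base (0.05 ± 0.06, edgeR adjusted p = 0.565).

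Levels of different genes were compared as RPKM, the TMM-scaled CPM divided by the length of each gene's merged exons in kilobases. Ncor1 had the highest level, 19.4 ± 0.474 RPKM (SD, n = 3) in the controls and 22.4 ± 0.544 with U-IRX3ov. Thra followed with 7.07 ± 0.407 and 6.04 ± 0.330. Slc16a10 came next in the controls at 4.27 ± 0.473, then Dio3 at 3.57 ± 0.459 and Thrb at 3.27 ± 0.0958; the libraries of Dio3 overlapped with those of both neighbours. With U-IRX3ov the order was Slc16a10 at 4.80 ± 0.205, Thrb at 4.27 ± 0.113 and Dio3 at 3.75 ± 0.545, and only Dio3 and Thrb overlapped. Dio2 was the lowest of the tested members, 0.526 ± 0.0781 RPKM in control and 0.768 ± 0.0526 in U-IRX3ov cells. The inactivating deiodinase thus had the higher mRNA level per length in every library, by 5.22-fold to 7.84-fold in control and 3.79-fold to 5.73-fold in U-IRX3ov cells. Dividing by the longest annotated transcript instead gave higher control levels for Ncor1 (27.6 RPKM), Thra (13.3), Slc16a10 (5.82) and Thrb (3.90). For Dio2 and Dio3 that transcript is as long as the merged exons, so their levels and ratio could not change. With those lengths Thrb came before Dio3, with overlapping libraries in the controls and separate ones with U-IRX3ov (5.10 against 3.75 RPKM), and Slc16a10 no longer overlapped with Dio3 in the controls.

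**Figure D3:**
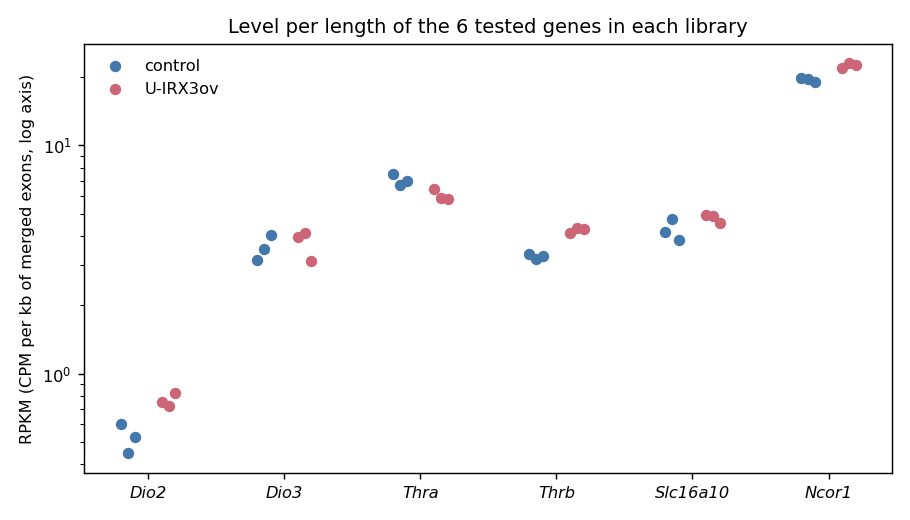
Level per length (RPKM, log axis) of the 6 tested genes, with 1 point per library, control on the left and U-IRX3ov on the right of each pair. Ncor1 lies near 20 RPKM in all libraries and Dio2 below 1 RPKM in all libraries.

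The wider pathway was read from 9 lists with 72 genes, the members included. Of the 62 tested, 29 rose and 10 fell in the edgeR test, 62.9% against 41.3% of all genes tested, and the median log2 fold change was 0.09 against -0.0047 for all genes. Without the 8 members 26 of 56 tested genes rose and 9 fell. The lists differed in direction, as shown in the plot of the pathway lists. Over all genes tested 20.2% rose and 21.1% fell, which is the background of every count below. No list was tested against it, because the lists were chosen with earlier results of these data known. A share above the background can follow from that choice.

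Among 5 tested transporter genes 1 rose and 2 fell (median log2 fold change 0.01). Those that fell were the system L amino acid carriers Slc7a8 and Slc7a5, which also move thyroid hormones. Slc7a8 fell from 6.60 ± 0.393 to 3.56 ± 0.161 CPM (-0.89 ± 0.14, edgeR adjusted p = 1.04e-05), and Slc7a5 from 47.0 ± 3.65 to 39.5 ± 1.66 CPM (-0.25 ± 0.06, edgeR adjusted p = 0.00175).

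In the list of deiodinases and their turnover 3 of 8 tested genes rose and 1 fell (median 0.07). The Dio2 enzyme is short-lived because it is ubiquitinated and degraded. Wsb1, the substrate adaptor of an E3 ligase for it, fell from 89.8 ± 1.96 to 67.5 ± 0.900 CPM (log2 fold change -0.41 ± 0.04, edgeR adjusted p = 1.11e-08). March6, another E3 ligase for it in the endoplasmic reticulum, rose (0.23 ± 0.04, edgeR adjusted p = 2.49e-05), and so did Usp33, a deubiquitinase that restores it (0.22 ± 0.04, edgeR adjusted p = 8.73e-05). The enzyme itself was not measured.

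Of 8 tested genes for making selenoproteins 2 rose and 1 fell (median 0.01), a share near the 41.3% called over all genes. Sephs2, which makes the selenium donor, went from 77.0 ± 1.42 to 102 ± 5.31 CPM (0.40 ± 0.04, edgeR adjusted p = 2.16e-08), and Pstk, a kinase of the selenocysteine tRNA pathway, rose by 0.39 ± 0.09 on the log2 scale. Sephs1, the paralog that does not make selenophosphate, fell (-0.20 ± 0.06, edgeR adjusted p = 0.00760), a call lost without control library 2 (0.0621). The elongation factor Eefsec had a log2 fold change of -0.14 ± 0.10 and did not pass.

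The partners of the receptors also differed among themselves. Of 4 tested receptor and RXR genes 2 rose and 2 fell (median 0.13). Rxrg, the RXR of muscle and brain, went from 5.12 ± 0.286 to 7.21 ± 0.182 CPM (0.49 ± 0.13, edgeR adjusted p = 0.00293). The far more abundant Rxra, at 118 ± 2.28 CPM in control and 108 ± 3.30 in U-IRX3ov cells, fell slightly (-0.12 ± 0.04, edgeR adjusted p = 0.0149). That call was lost without control library 2 (0.0521) and without U-IRX3ov library 3 (0.102).

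The corepressor genes also moved in both directions, with 2 of 6 tested genes higher and 2 lower (median 0.02). Beside Ncor1, Hdac3, the deacetylase of its complex, rose (0.26 ± 0.05, edgeR adjusted p = 1.32e-04) and Tbl1x, another subunit, fell (-0.15 ± 0.04, edgeR adjusted p = 0.00326).

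Coactivator genes rose in 4 of 10 and fell in 1 (median 0.04). The 2 with the largest rises were Ppargc1b, from 44.1 ± 0.636 to 93.2 ± 4.72 CPM (1.08 ± 0.05), and Ppargc1a, from 15.5 ± 1.91 to 34.9 ± 2.59 CPM (1.17 ± 0.08), coactivators of mitochondrial genes. The p160 coactivators of nuclear receptors split, with Ncoa1 higher (0.29 ± 0.05, edgeR adjusted p = 1.21e-05) and Ncoa3 lower (-0.31 ± 0.06, edgeR adjusted p = 2.04e-04).

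Genes known to respond to T3 had the highest median of the lists, 0.54, with 8 of 13 tested genes higher and 1 lower. Gpd2, the mitochondrial glycerol phosphate dehydrogenase, went from 56.7 ± 2.21 to 145 ± 3.95 CPM (log2 fold change 1.35 ± 0.04, edgeR adjusted p = 7.23e-19). Thrsp, the thyroid hormone responsive regulator of lipogenesis, rose by 1.25 ± 0.04, Pck1 by 1.41 ± 0.07, Fasn by 0.71 ± 0.03 and Ucp1 by 3.60 ± 0.08 on that scale. The gene that fell was Cpt1a (-0.19 ± 0.05, edgeR adjusted p = 0.00680), named after its value was seen. These genes also respond to other signals, among them insulin, carbohydrate and PPAR ligands, and T3 was in the medium of both groups.

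In the list of cAMP input to Dio2 7 of 8 tested genes rose and 0 fell (median 0.38). Tshr, the thyrotropin receptor, went from 21.2 ± 1.57 to 36.4 ± 2.53 CPM (0.78 ± 0.07, edgeR adjusted p = 5.96e-10). Adrb3, the adrenergic receptor typical of fat cells, went from 158 ± 6.08 to 210 ± 8.37 CPM (0.41 ± 0.04), and the protein kinase A subunits Prkar2b (0.41 ± 0.03) and Prkaca (0.36 ± 0.04) rose with it. The tested gene of this list that was not called was Creb1, the gene of CREB (-0.02 ± 0.05, edgeR adjusted p = 0.833). The Dio2 promoter printed above holds the cAMP response element. Whether that site was in use, or linked these genes to the level of Dio2, was not tested.

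**Figure D4:**
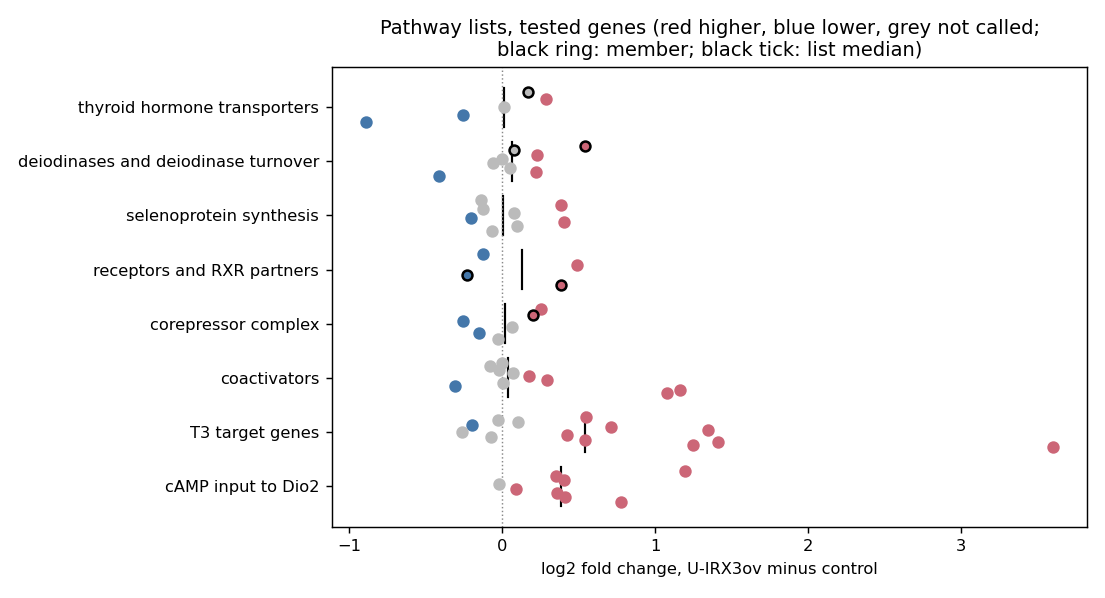
Log2 fold change of each tested gene in 8 pathway lists, with called genes in red (higher) or blue (lower), others in grey, members ringed in black and list medians as ticks. The lists of T3 target genes and cAMP input lie mostly to the right of 0, and the other 6 lists lie on both sides of it.

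Markers of cell types moved between the groups in the same libraries. Over all genes tested 20.2% rose and 21.1% fell. No marker list was tested against these shares, and these lists too were chosen with earlier results known. General adipocyte markers rose in 8 of 10 tested genes and fell in 0, with a summed level of 28780 to 29610 CPM in control and 36350 to 37830 in U-IRX3ov libraries. Preadipocyte and fibroblast markers fell in 10 of 11 and rose in 0, with sums of 4930 to 5025 and 3134 to 3430 CPM, and Dpp4 was below 1 CPM in both groups. Macrophage and leukocyte markers fell in 12 of 12, with sums of 489 to 599 and 159 to 235 CPM.

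The lesser lists moved too. Pericyte and smooth muscle markers rose in 1 and fell in 5 of 7 (4558 to 4798 and 2847 to 3163 CPM). Endothelial markers rose in 4 of 8 (39.6 to 43.8 and 60.8 to 64.7 CPM). Skeletal muscle markers rose in 2 and fell in 1 of 3 (21.9 to 26.1 and 20.92 to 23.97 CPM), with Myf5 at 0 in all libraries. Schwann and nerve markers rose in 3 and fell in 1 of 5 (38.4 to 42.0 and 34.8 to 37.9 CPM). In bulk RNA, fewer cells of a type and less RNA per cell cannot be told apart. The part of cell makeup in the values of Dio2, Thra, Thrb, Ncor1 and the other members was not tested.

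The genes whose pattern was most like that of each tested member were taken by Pearson's r of log2 CPM over the 6 libraries, among 8629 genes of at least 10 CPM. These points share the 2 groups of 3, so r describes the group difference together with the order within groups. Only the 2 highest of 8629 values were kept for each member, so a high r follows in part from that choice. No r was tested. For Dio2 they were the LIM-domain gene Lmo4 (r = 0.997) and the ubiquitin ligase scaffold gene Cul4b (r = 0.992), both also called higher (0.17 and 0.24 on the log2 scale). For Thrb they were the cochaperone gene Fkbp4 (r = 0.999, log2 fold change 0.31) and the potassium channel gene Kcnk3 (r = 0.998, 0.76). For Thra they were Zfp451 (r = 0.992, -0.12, not called) and the ribosomal protein gene Rps4x (r = 0.988, -0.20). For Ncor1 they were Tarsl2 (r = 0.9997, 0.75) and Spag9 (r = 0.999, 0.18). Those of Dio3, Zbtb17 (r = 0.979) and Gpalpp1 (r = 0.978), and of Slc16a10, Phf8 (r = 0.997) and Hdac5 (r = 0.986), were not called.

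**Figure D5:**
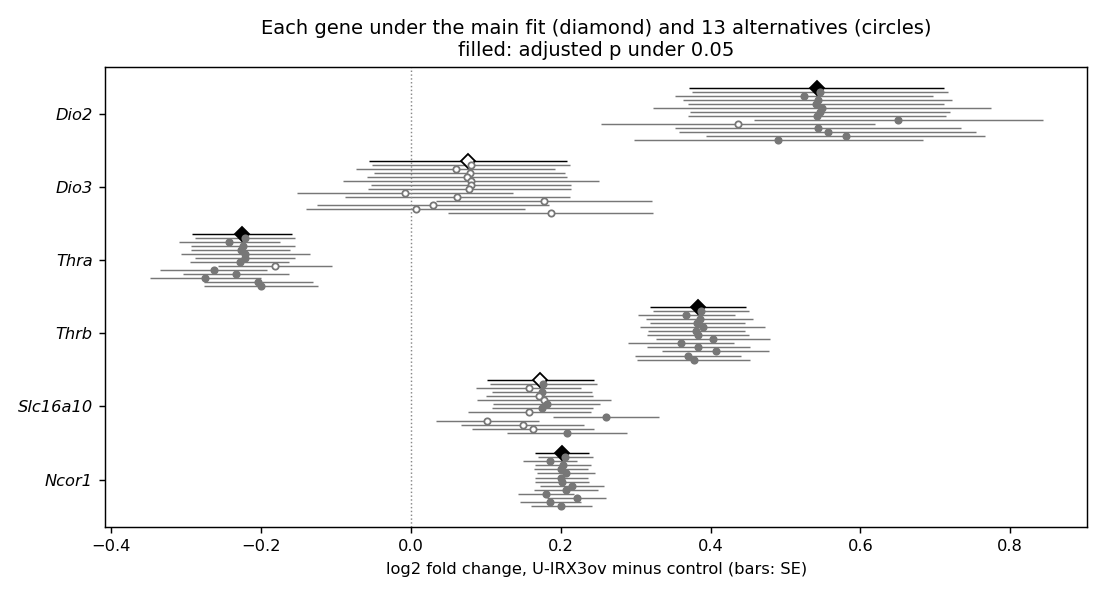
Log2 fold change with its SE for each tested member under the main analysis (diamond) and 13 alternatives (circles), filled where the adjusted p is under 0.05. Thrb and Ncor1 are filled throughout, Dio2 and Thra lose the call in 1 alternative each, Slc16a10 lies on both sides of the threshold and Dio3 is open throughout.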

How the data were processed

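Raw counts per gene symbol were deposited as 1 table by the authors, not normalized, and each column is named as its library. The submitters' processing notes name HISAT2 2.0.4 and mm10. How reads were assigned to genes, and if strand was used, is not given in the sources used here, so genes that overlap others are uncertain; of the members and listed genes named, Dio2, Thra, Ncor1, Usp33, Sephs2, Pstk, Eefsec, Ncoa1, Ncoa3, Gpd2, Adrb3 and Dpp4 share exon bases with a gene on the other strand, as do Nr1d1, Pigl and Ttc19 with members. The other named genes were not checked for this.

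Genes were filtered with filterByExpr, which kept 14757 of 46095 rows holding 99.9% of counts, scaled by TMM and tested with edgeR 4.0.16 in R 4.3.3 (robust quasi-likelihood F test, group as the only term, Benjamini-Hochberg over all genes tested, threshold 0.05). SE is the log2 fold change divided by the square root of F. Lengths, coordinates and overlaps came from GENCODE M21 (GRCm38, the assembly of mm10), and all 8 members matched by symbol. The fit was tested on simulated data. Alternatives were other scalings, filters, DESeq2 1.42.0, limma-voom (limma 3.58.1), a replicate block, leaving out each library, and a threshold of 0.01. With 3 libraries per group single-gene p-values rest on the model.

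The members and lists were chosen with earlier results of these data known, so lists are described by counts and medians and not tested. Beside the members, genes were named by rule: annotated overlapping genes with a count, up to 4 of each list with the smallest p, Ppargc1a and Ucp1, and the 2 genes most like each tested member; some genes this rule names are not reported here. Replicate numbers run 1 to 3 in both groups, and no label ties equal numbers to a common source.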

Additional observations from a re-analysis of the deposited data

How the results depend on the processing

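Thrb and Ncor1 passed in all 13 alternative analyses (log2 fold changes of 0.36 to 0.41 and 0.18 to 0.22), and Dio2 and Thra in 12 of 13. At a threshold of 0.01 in the main analysis, which those 13 leave out, 2 members rose and 1 fell, since Dio2 (adjusted p = 0.0118) lost its call. The number of members that fell was 0 without control library 1 and 1 without any other library. Slc16a10 also passed with DESeq2's size factors (adjusted p = 0.0499), without a filter (0.0388), in limma-voom (0.0443) and without U-IRX3ov library 3 (0.0454). Leaving out each library in turn turned the sign of some genes that did not pass the test. The log2 fold change ran from -0.0075 (without control library 1) to 0.19 for Dio3, from -0.0178 to 0.0804 for Zbtb17 (negative also without control 1 and U-IRX3ov 1), from -0.0152 to 0.0749 for Gpalpp1 (negative without control 1 and U-IRX3ov 2), from -0.0436 to 0.33 for Dio3os, from -0.22 to 0.59 for Meg3 and from -0.36 to 0.14 for Rian. The counts over all genes and over the pathway lists stayed within 1.5 times. Same-numbered libraries had correlations of deviations of 0.02, 0.07 and 0.05. These values are small, yet every library correlated best with its own number, so they do not decide if the numbers mark pairs. With a replicate block 4 members rose and 1 fell, Slc16a10 being the added one (adjusted p = 0.0355), and 3014 genes rose and 3159 fell; the ratio of Thra to Thrb differed by -0.61 (exact sign-flip p = 0.25, the smallest 3 pairs allow). Depth limits Dio2, at 68 to 114 counts per library, and left Dio1 and Crym untested.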

Other observations

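Dio3 lies in an imprinted domain of chromosome 12. Its neighbours there, chosen after their values were seen, had log2 fold changes of 0.17 ± 0.26 (Dio3os), 0.28 ± 0.42 (Meg3), -0.20 ± 0.24 (Rian) and -0.12 ± 0.18 (Mirg), each with overlapping groups, and none passed the edgeR test (adjusted p = 0.639, 0.654, 0.532 and 0.630). The highest group mean of the 4 was 4.93 CPM, for Meg3 in U-IRX3ov cells.

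Other selenoprotein genes, also chosen after their values were seen, moved in both directions. Gpx4, the glutathione peroxidase of lipid peroxides, rose (0.58 ± 0.04, edgeR adjusted p = 1.83e-13), while Gpx1 fell by 0.44 and Gpx3 fell by 0.49 on the log2 scale (edgeR adjusted p = 3.49e-08 and 1.33e-08).

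Rxrb and Gps2, which most cells express, had 0 to 9 and 0 to 24 counts per library and were not tested. Whether the counting dropped their reads was not tested, and their levels here are uncertain.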
